A study of Mus musculus with 32 samples.

Results

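Transcripts of 10 transcription factors that mark lineages other than the primitive endoderm (PrE) were followed in mouse embryonic stem (mES) cells driven towards PrE by GATA6. The 10 were picked by gene symbol, as known lineage factors, from the 54233 rows of the RNA-seq table. They comprised 6 trophoblast factors (*Cdx2*, *Eomes*, *Tfap2c*, *Elf5*, *Hand1* and *Tead4*), 3 mesoderm factors (*Mixl1*, *Mesp1* and *Evx1*) and 1 neural factor (*Pax6*). All 10 had a row, and 6 of them passed the filter for testing, at least 10 normalized counts in no fewer than 4 of the 32 samples. *Elf5*, *Mixl1*, *Mesp1* and *Pax6* did not pass, and their reads are given without a test in the main fit. Some values from a limma fit without the filter are quoted for them. The share of all genes called in that fit was not computed.

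The cells were the KH2 mES cell line, labelled as strain C57BL/6, and every sample carried the same single-copy TRE:GATA6-DSREd2 transgene, in which a bidirectional doxycycline (Dox)-responsive element drives GATA6-FLAG and the red protein DsRed2. Cells at 0 h had been kept without Dox in 2i medium, which holds LIF and inhibitors of MEK and GSK3. Cells at 2, 4 and 8 h were in serum and LIF with 1 µg/ml Dox, and those at 16, 24, 48 and 96 h had received Dox for 12 h followed by serum medium free of Dox. The medium and Dox changed together after 0 h, so their effects cannot be told apart, and no uninduced cells in serum medium were analysed here. Each of the 8 time points had 4 replicates, which the study's methods call biological, all of the same cell line, so p-values measure the spread between replicates of this line. In such bulk RNA, fewer cells with a transcript and less transcript per cell cannot be told apart.

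In the blastocyst, the outer cells form trophectoderm, the source of the placental trophoblast, and the inner cell mass gives the epiblast, which mES cells resemble, and the PrE. TEAD4 acts with YAP in outer cells to switch on *Cdx2*, and CDX2, EOMES, ELF5 and TFAP2C hold trophoblast stem cells in their state, whereas HAND1 drives the formation of trophoblast giant cells. Mesoderm and neural tissue come later, from the epiblast: MIXL1, EVX1 and MESP1 appear in and around the primitive streak, and PAX6 marks neural progenitors. Several of these factors have other sites of use, among them EOMES in the streak and in definitive endoderm, TFAP2C in naive pluripotent and germ cells, and HAND1 in extraembryonic and cardiac mesoderm.

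*Cdx2* lies on chromosome 5 of GRCm38 (chr5:147300805-147307270, minus strand) and *Evx1* on chromosome 6 (chr6:52313498-52318378, plus strand). The RefSeq promoter table for GRCm38.p6, with 250 bases before and 50 after each transcription start, held 8 promoters for 6 of the 10 genes. It had no entry for *Hand1*, *Mixl1*, *Tead4* or *Tfap2c*. The *Cdx2* promoter (chr5:147307200-147307499, minus strand) is printed because the study used this gene's promoter as a viewpoint in its chromosome capture experiment, and capitals mark the 59 bases that a capture probe covered. *Cdx2* served there as a control, among genes that the paper describes as expressed in neither lineage. The *Evx1* promoter (chr6:52313248-52313547, plus strand) is printed as that of the factor whose reads ran out, and capitals mark a match to GATAA, the core of the GATA-factor motif, which lies here on the reverse strand. Both are written 5′ to 3′ on the gene's own strand.

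Cdx2 promoter: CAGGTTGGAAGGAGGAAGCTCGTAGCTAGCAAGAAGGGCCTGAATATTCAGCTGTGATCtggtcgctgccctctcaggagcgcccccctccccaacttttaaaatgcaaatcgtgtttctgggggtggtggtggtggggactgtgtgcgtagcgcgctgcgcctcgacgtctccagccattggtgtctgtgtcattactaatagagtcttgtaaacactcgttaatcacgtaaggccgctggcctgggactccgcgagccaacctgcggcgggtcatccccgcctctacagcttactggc

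Evx1 promoter: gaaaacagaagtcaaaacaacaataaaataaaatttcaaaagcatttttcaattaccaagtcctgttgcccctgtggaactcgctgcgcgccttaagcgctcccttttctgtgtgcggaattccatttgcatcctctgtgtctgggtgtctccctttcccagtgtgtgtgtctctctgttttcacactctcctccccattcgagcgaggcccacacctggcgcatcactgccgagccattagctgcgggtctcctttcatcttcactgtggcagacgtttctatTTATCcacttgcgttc

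Cdx2_L capture probe (chr5:147307441-147307560, plus strand): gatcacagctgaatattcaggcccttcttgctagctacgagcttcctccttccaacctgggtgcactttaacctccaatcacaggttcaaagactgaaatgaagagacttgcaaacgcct

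GATAA, searched on both strands, occurred in 5 of the 8 promoters, belonging to 4 genes (*Elf5*, *Evx1*, *Mesp1* and *Pax6*), and in 25.4% of all 32851 promoters in the table. The *Cdx2* promoter and that of *Eomes* (chr9:118477939-118478238, plus strand) held no match. A match is a description of the letters in this window only.

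A normalized count is a gene's reads over the size factor of its sample. The samples held between 3190108 and 12301732 reads on genes, and 3 reads, taken here as the limit of measurement, came to a normalized count of between 1.88 and 7.27. A gene was called not measurable at a time point when no replicate had more than 3 reads. Intervals on read numbers were taken on reads pooled over the 4 replicates. They cover counting error only and leave out the spread between replicates. PCR duplicates could not be told from separate molecules. Endogenous *Gata6* averaged 0.371 ± 0.432 at 0 h and 2067 ± 154 at 96 h (SD, n = 4), and the transgene row held no read at 0 h and 618 ± 110.4 at 2 h. Between 0 and 96 h the pluripotency factors *Pou5f1* and *Nanog* went from 9104 ± 1585 to 2051 ± 295 and from 5875 ± 1219 to 60.1 ± 19.9, and the PrE factors *Gata4* and *Sox17* from 26 ± 9.14 to 6786 ± 663 and from 4.89 ± 2.43 to 1511 ± 167. Replicates 1 and 2 differed from replicates 3 and 4 across the transcriptome (median chi-square per degree of freedom of 10.3 between these sets and 1.53 within them), and values by set are given for the factors whose changes differed between them. A fit within 1 set rests on 2 replicates per time point. Its p-values measure the spread inside that set and not the larger spread between sets. The main fit takes the 4 replicates of a time point as independent, so its p-values do not allow for the sets. With each set averaged to 1 value per time point, *Hand1*, *Evx1* and *Tfap2c* were still called against 0 h at some time point. The limma adjusted p rose from 0.00045 to 0.06 for *Tfap2c* at 2 h, and from 0.015 to 0.13 for *Eomes* at 48 h.

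The 10 factors differed in how far they stayed silent, also within the trophoblast group. At 96 h, per kb of exon, *Tead4* stood at 334, *Tfap2c* at 35.2, *Eomes* at 23.2, *Hand1* at 15.0 and *Cdx2* at 14.4 normalized counts, against a median of 40.8 over the genes tested. The other 5 factors, *Elf5*, *Mixl1*, *Mesp1*, *Evx1* and *Pax6*, were each at 3 reads or fewer in all 4 replicates at 96 h and therefore not measurable. *Mesp1* had more than 3 reads in a library at 8 h alone, and *Elf5* at 4 and 8 h alone. *Evx1* was not measurable from 48 h on. No factor was called lower at one time point and higher at another against 0 h.

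**Figure D1:**
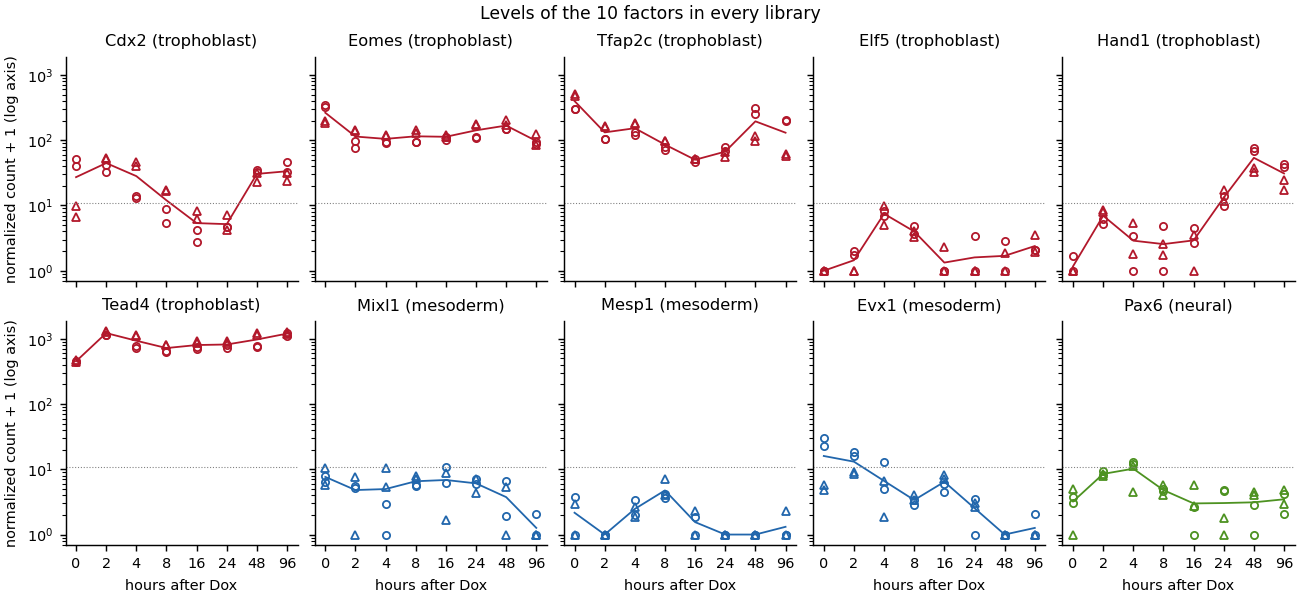
Normalized counts plus 1 (log axis) of the 10 factors in each of the 32 samples against hours after Dox, with circles for replicates 1 and 2, triangles for replicates 3 and 4 and a line through the means (n = 4). *Tead4*, *Tfap2c* and *Eomes* stay above the dotted line, a normalized count of 10, in every sample, *Hand1* crosses it between 16 and 48 h, and *Elf5*, *Mixl1* and *Mesp1* stay under it throughout.

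At the study's threshold, FDR < 0.1 with at least a 4-fold change by limma, 1 factor was called higher than at 0 h at some time point (*Hand1*), and 2 were called lower (*Tfap2c* and *Evx1*). Of the 15227 genes tested, 13.6% were called higher and 12.1% lower at some time point. With 6 members tested, *Hand1* and *Evx1* passed the filter through the time points at which they were high, so these counts describe single genes. *Hand1* was the member called higher at 2, 24, 48 and 96 h, where 2.00%, 4.85%, 8.48% and 9.28% of genes were called higher. At 4, 8 and 16 h no member was called higher, beside 2.69%, 3.40% and 4.03% of genes. *Tfap2c* was called lower at 8, 16 and 24 h, and *Evx1* at 24, 48 and 96 h. The share of genes called lower was 1.31%, 2.40%, 4.34%, 7.09% and 10.3% at 8, 16, 24, 48 and 96 h. At 2 and 4 h no member was called lower, beside 0.348% and 0.709% of genes.

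**Figure D2:**
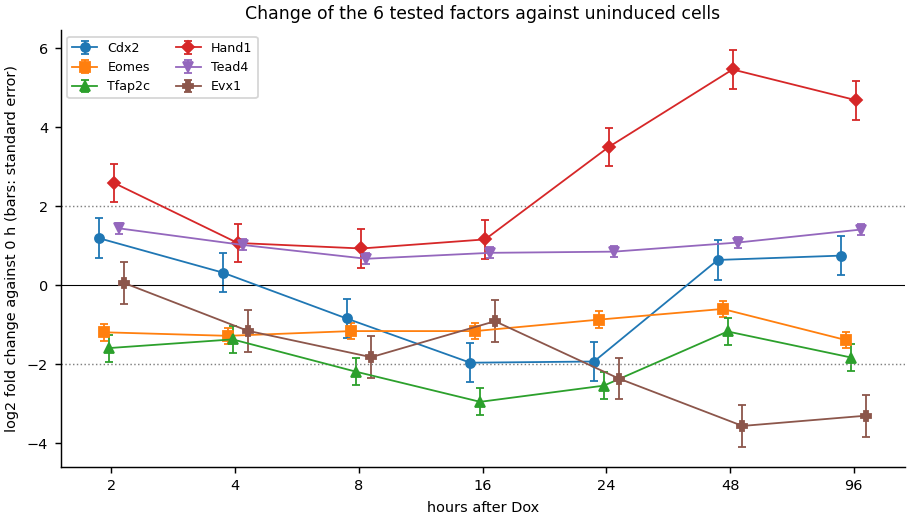
Log2 fold changes against 0 h of the 6 factors that passed the filter, on the log2(normalized count + 1) scale, with bars for the standard error and dotted lines at the 4-fold threshold. *Hand1* reaches 5.46 at 48 h, *Evx1* falls to -3.56, *Tfap2c* is lowest at 16 h (-2.95), and *Tead4* and *Eomes* keep one direction within the dotted lines.

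Among the trophoblast factors, *Tead4* (chr6:128224288-128300823), the partner of YAP, was the most abundant per kb at all 8 time points. Its normalized counts at 0 h were 435, 452, 442 and 474. At 2 h they were 1161, 1129, 1314 and 1292, and at 96 h 1209.7, 1121, 1283 and 1192. The samples of 2 and 96 h lay entirely above those of 0 h, as did those of every time point between, whose lowest value was 621. *Tead4* rose by a log2 fold change of 1.44 ± 0.14 (SE) at 2 h (limma, adjusted p = 1.9e-09), a 2.72-fold ratio of means, and stood at 0.67 ± 0.14 at 8 h (adjusted p = 0.00029) and at 1.41 ± 0.14 at 96 h (adjusted p = 2.8e-10). None of these changes reached 4-fold. By FDR alone, the genes higher at 2 h made up 22.2% and those lower 22.6% of all tested, and for 96 h the shares were 38.0% and 38.5%. The rise at 2 h was 1.37 in replicates 1 and 2 and 1.51 in replicates 3 and 4.

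*Eomes* (chr9:118478212-118486132), a T-box factor needed for trophoblast outgrowth, was present in uninduced cells and lower afterwards. It had 323, 349, 179.7 and 198 normalized counts at 0 h. At 96 h it had 87, 91.5, 124 and 83.2, all below the lowest 0 h sample. The log2 fold change lay between -1.39 ± 0.21 at 96 h (adjusted p = 1.0e-06) and -0.60 ± 0.21 at 48 h (adjusted p = 0.015). Over all 4 replicates it was past the FDR limit at each of the 7 later time points and short of 4-fold. With each set averaged to 1 value per time point, the change at 48 h did not pass the FDR limit (limma adjusted p = 0.13). That at 24 h had an adjusted p of 0.05, and the other time points passed. The size differed by set, with -1.96 in replicates 1 and 2 and -0.43 in replicates 3 and 4 at 2 h. Replicates 3 and 4 alone gave -0.12 (adjusted p = 0.5) at 24 h and -0.02 (adjusted p = 0.9) at 48 h, beside -1.62 and -1.18 in replicates 1 and 2. An antisense gene, *Gm33460*, shares exon sequence with *Eomes* and had between 3 and 14 reads per time point in the table. Whether reads were counted by strand is not given in the sources used here.

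*Tfap2c* (chr2:172549593-172558622), an AP-2 factor of trophoblast stem and germ cells, fell to a low at 16 h, and its later course differed between the replicate sets. Its normalized counts were 305, 305, 468 and 514 at 0 h. They were 50.4, 45.6, 49.9 and 50.9 at 16 h, well apart from 0 h and with little spread. At 48 h they were 254, 311, 95.9 and 114. *Tfap2c* fell by 2.19 ± 0.34 on the log2 scale at 8 h (adjusted p = 5.3e-06), by 2.95 ± 0.34 at 16 h (adjusted p = 2.6e-08) and by 2.54 ± 0.34 at 24 h (adjusted p = 2.4e-07). These calls held in each set of replicates. The sets parted later. At 48 h the log2 fold change was -0.12 in replicates 1 and 2 (adjusted p = 0.47) and -2.22 in replicates 3 and 4 (adjusted p = 3.2e-13). At 96 h the samples read 195, 207, 60.3 and 55.8, and the log2 fold change was -0.60 in replicates 1 and 2 and -3.06 in replicates 3 and 4. Over all 4 replicates it was -1.83 ± 0.34 (adjusted p = 2.2e-05), short of the threshold, and it passed the threshold without replicate 1 (-2.11) or replicate 2 (-2.14) of 96 h. From 24 to 48 h *Tfap2c* rose by 1.37 ± 0.34 (adjusted p = 0.0013), less than 4-fold, with 1.96 in replicates 1 and 2 and 0.79 in replicates 3 and 4.

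*Hand1* (chr11:57828705-57832818), a basic helix-loop-helix factor of giant cells and extraembryonic mesoderm, went from a sole read at 0 h to a clear signal at 48 h. At 0 h the replicates had 0, 1, 0 and 0 reads. At 2 h they had 4, 7, 6 and 9 reads, and at 16 h 4, 2, 0 and 3. At 24 h normalized counts were 13.2, 8.76, 16.2 and 10.6. At 48 h they reached 67.8, 75.4, 31.7 and 36.1, above every sample of the earlier time points, and at 96 h they were 38.2, 42.1, 23.8 and 16.1. The limma log2 fold change was 2.59 ± 0.49 at 2 h (adjusted p = 9.6e-05), 3.50 ± 0.49 at 24 h (adjusted p = 4.8e-07), 5.46 ± 0.49 at 48 h (adjusted p = 3.9e-11) and 4.68 ± 0.49 at 96 h (adjusted p = 7.9e-10). With 1 read at 0 h the ratio of pooled normalized reads is poorly bounded, at 196-fold for 48 h with a 95% counting interval (exact Clopper-Pearson on the share of reads) from 34.8 to 7795, and at 23.7-fold for 2 h from 3.89 to 970.1. The early rise was brief: *Hand1* fell by 1.51 ± 0.49 from 2 to 4 h (adjusted p = 0.03), short of 4-fold. It rose by 2.34 ± 0.49 from 16 to 24 h (adjusted p = 0.00078), a step at which 0.525% of genes were called higher, with 1.78 in replicates 1 and 2, short of 4-fold, and 2.90 in replicates 3 and 4. Both sets of replicates carried the calls at 2, 24, 48 and 96 h. With a pseudocount of 5 in place of 1, the changes at 2 h (1.08) and at 24 h (1.72) no longer reached 4-fold.

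*Cdx2*, the caudal-type homeodomain factor that defines trophectoderm, followed a course that depended on the replicate set at its start. Normalized counts at 0 h were 40, 50.3, 8.87 and 5.67. At 2 h they were 31.2, 41.5, 50.4 and 51.7, and at 24 h 3.6, 3.75, 6.09 and 3.26. At 48 h they were back at 31.1, 33.9, 22 and 31. Replicates 1 and 2 thus started high and replicates 3 and 4 low, and from 24 h on the sets were close. The difference between 2 and 0 h was 1.19 ± 0.50 over all replicates (adjusted p = 0.063), -0.31 in replicates 1 and 2 (adjusted p = 0.53) and 2.68 in replicates 3 and 4 (adjusted p = 8.7e-07), so no direction holds across the sets. With each set averaged to 1 value per time point before the limma fit, the adjusted p was 0.32. The sets also went opposite ways at 4 h, with -1.77 (adjusted p = 0.00048) and 2.40 (adjusted p = 3.7e-06), and at 8 h, with -2.72 (adjusted p = 2.8e-06) and 1.05 (adjusted p = 0.016). At 16 h the change was -1.96 ± 0.50 (adjusted p = 0.0019), with -3.75 in replicates 1 and 2 and -0.18 in replicates 3 and 4 (adjusted p = 0.7), and at 24 h it was -1.93 ± 0.50 (adjusted p = 0.0017), with -3.29 and -0.56. Without replicate 3 or 4 of 0 h the change at 16 h passed the threshold (-2.28 and -2.47), as did that at 24 h (-2.25 and -2.44), and leaving out replicate 3 (-2.21) or 4 (-2.07) of 16 h, or replicate 3 of 24 h (-2.09), had the same effect. At 48 h (0.64 ± 0.50, adjusted p = 0.26) and 96 h (0.75 ± 0.50, adjusted p = 0.18) the change over all replicates did not pass the FDR limit. Replicates 1 and 2 gave -0.45 (adjusted p = 0.28) and -0.24 (adjusted p = 0.58), whereas replicates 3 and 4 gave 1.74 at both times (adjusted p = 0.0001 and 8.9e-05), short of 4-fold. The rise from 24 to 48 h, by 2.57 ± 0.50 (adjusted p = 9.1e-05), was called in both sets (2.84 and 2.30), at a step where 2.51% of genes were called higher. Even at its highest mean, 43.7 ± 9.5 at 2 h (n = 4), *Cdx2* lay per kb above 36.6% of the genes tested.

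**Figure D3:**
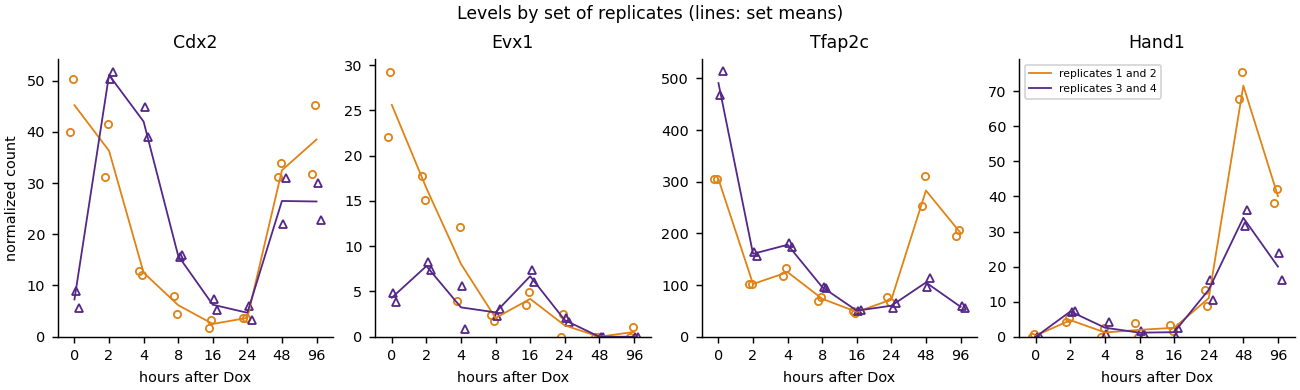
Normalized counts of *Cdx2*, *Evx1*, *Tfap2c* and *Hand1* against hours after Dox, with circles and orange lines for replicates 1 and 2, triangles and purple lines for replicates 3 and 4, and lines through the means of each set. At 0 h *Cdx2* averages 45.2 in replicates 1 and 2 and 7.27 in replicates 3 and 4, and at 96 h *Tfap2c* averages 201 and 58.0.

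*Elf5* (chr2:103411688-103450989), an ETS factor whose expression marks cells committed to trophoblast, was close to silent. It had no read in any 0 h sample and 52 reads in all 32 samples together. At 4 h the replicates had 6, 3, 5 and 10 reads, or 5.93, 7.27, 4.01 and 8.67 normalized counts, and at 8 h 5, 3, 3 and 4 reads. No other time point had a library above 3 reads. The 4 h mean was at least 1.81-fold above the limit that 3 reads per library set at 0 h. In the fit without the filter on low values *Elf5* was called higher at 4 h (log2 fold change 2.86, adjusted p = 1.4e-06).

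The 3 mesoderm factors were at most weakly expressed before induction and not measurable at 96 h. *Evx1*, an even-skipped homeodomain factor of the posterior streak, had 22.1, 29.2, 4.84 and 3.78 normalized counts at 0 h, so that replicates 1 and 2 stood above replicates 3 and 4. At 16 h it had 3.48, 4.89, 7.32 and 6.04. At 48 h no replicate had a read, and at 96 h the reads were 0, 1, 0 and 0. The log2 fold change was -3.56 ± 0.53 at 48 h (adjusted p = 7.2e-07) and -3.30 ± 0.53 at 96 h (adjusted p = 2.1e-06). The mean of all 4 replicates was at least 4.21-fold lower at 48 h than at 0 h. That 0 h mean was carried by replicates 1 and 2, at 25.6. Replicates 3 and 4 averaged 4.31, near the 3.55 that 3 reads came to at 48 h, so the bound does not hold for them alone. The ratio of pooled reads at 96 h was 63.3-fold lower, with a 95% counting interval from 11 to 2537. Both calls held within each set, at -4.72 and -2.40 for 48 h, and neither reached 4-fold with a pseudocount of 5. The call at 24 h (-2.36 ± 0.53, adjusted p = 0.00036) was lost without replicate 2 of 0 h (-1.91) or replicate 1 of 24 h (-1.96), and replicates 3 and 4 alone gave -0.90 (adjusted p = 0.2). The change at 8 h (-1.82 ± 0.53, adjusted p = 0.0061) became a call without replicate 3 (-2.16) or 4 (-2.25) of 0 h, and was -3.11 (adjusted p = 0.0003) in replicates 1 and 2 and -0.52 (adjusted p = 0.5) in replicates 3 and 4. The antisense gene *Evx1os* shares exon sequence with *Evx1*, with summed reads of 15 at 0 h and 17 at 16 h, none at 48 h and 1 at 96 h.

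*Mixl1* (chr1:180693043-180697034), a paired-type homeodomain factor of the streak, had 5, 8, 6 and 5 reads at 0 h and 1, 0, 0 and 0 reads at 96 h. Its largest value in any library was 12 reads. Between 2 and 24 h its mean lay between 3.81 and 5.86 normalized counts, and single libraries ranged from 0 to 12 reads. The ratio of pooled reads at 96 h was 22.7-fold lower than at 0 h, with a 95% counting interval from 3.7 to 932, and without the filter the fall at 96 h was called (log2 fold change -2.64, adjusted p = 0.0016). *Mesp1* (chr7:79792241-79793788), the early marker of cardiovascular mesoderm, had 31 reads in all samples together, of which 19 fell at 8 h (4, 3, 4 and 8 reads). It had none at 2, 24 and 48 h. Pooled reads of *Mesp1* at 8 h were 5.03-fold those of 0 h, with a 95% counting interval from 1.48 to 26.5. Without the filter its change at 8 h (limma log2 fold change 1.34, adjusted p = 0.0057) passed the FDR limit and not the 4-fold threshold. At 24 h (-0.86, limma adjusted p = 0.074) and 48 h (-0.86, adjusted p = 0.06) the fit also passed the FDR limit. *Mesp1* was not measurable at 0, 24 or 48 h, so no fall is read from these values.

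*Pax6* (chr2:105668900-105697364), the paired-box factor of forebrain and eye, had 134 reads in all samples together and at most 13 in a library. Its normalized counts were 2.76, 2.04, 4.03 and 0 at 0 h. At 2 h they were 7.27, 8.3, 7.03 and 7.39, all above 0 h, and at 4 h 10.9, 12.1, 10.4 and 3.47. From 16 h on the mean lay between 2 and 2.47, near the 2.21 of 0 h. Without the filter the changes at 2 h (log2 fold change 1.62, adjusted p = 0.047) and 4 h (1.78, adjusted p = 0.025) passed the FDR limit and not the 4-fold threshold. Per kb, the level at 4 h lay above 3.42% of the genes tested. The neighbouring antisense gene *Pax6os1* had no read.

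Between neighbouring time points, over 7 comparisons, *Cdx2* (24 to 48 h) and *Hand1* (0 to 2 h and 16 to 24 h) were called higher and no member was called lower, by limma or by limma-voom on the recovered reads. All 6 tested members were lower than at the preceding time point at least once at an unadjusted p under 0.05 (limma). The share of all genes lower at that looser limit was not computed, so this count does not set the factors apart. At the study's threshold, over the 6 steps from 2 h on, 4.91% of genes were called higher and 5.12% lower at some step.

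Other genes of the 3 lineages were followed as lists of 14 trophoblast, 14 mesoderm and 15 neural genes. A gene that passed the filter only through the time points at which it was high had to differ, so the counts over tested genes are descriptions, to be read beside the 13.6% and 12.1% of all genes called higher and lower. Of the trophoblast list 10 passed the filter, and 7 were called higher than at 0 h at some time point (*Ascl2*, *Dlx3*, *Esx1*, *Fgfr2*, *Gata3*, *Krt7* and *Plac1*) and 2 lower (*Tfap2a*, and *Ascl2* at another time). At 48 h the median log2 fold change of the 10 was 3.27, beside -0.02 over all genes tested. *Fgfr2*, the FGF receptor that PrE shares with trophectoderm, rose from 7.23 ± 3.85 to 1501 ± 225 normalized counts at 24 h (log2 fold change 7.64 ± 0.34, adjusted p = 1.0e-17). *Plac1*, a placental membrane-associated protein, had 5.52, 0.679, 0.806 and 0 normalized counts at 0 h and 524, 531, 594 and 580.0 at 48 h (8.05 ± 0.53, adjusted p = 2.5e-14). *Gata3*, a GATA factor of trophectoderm, reached 33.2 ± 6.51 at 48 h (4.00 ± 0.40, adjusted p = 3.0e-10), and *Dlx3*, a homeodomain factor of the labyrinth, 36.8 ± 18.5 (3.99 ± 0.62, adjusted p = 1.5e-06). *Gcm1*, *Prl3d1* and *Tpbpa*, which define syncytiotrophoblast, giant cells and spongiotrophoblast, had at most 3 reads in each of the 32 samples, as did *Hand2*. The summed level of these 3 markers with *Plac1* was 0 to 5.52 at 0 h and 524 to 594 at 48 h, carried by *Plac1*.

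Of the mesoderm list 8 passed the filter, and 5 were called higher (*Foxf1*, *Kdr*, *Lhx1*, *Snai1* and *Twist1*) and 2 lower (*T*, and *Kdr* at another time). *T*, the T-box factor Brachyury of the primitive streak, had 422, 421, 56.4 and 39.7 normalized counts at 0 h, again higher in replicates 1 and 2, and 1.06, 0, 0 and 0 at 96 h (log2 fold change -6.90 ± 0.85, adjusted p = 2.1e-08), a pooled ratio of 959.9-fold lower with a 95% counting interval from 172 to 37950.2. *Snai1*, a zinc-finger repressor of E-cadherin, rose from 16 ± 4.54 to 489.8 ± 44.8 at 96 h (4.89 ± 0.30, adjusted p = 3.0e-15). *Foxf1*, a forkhead factor of lateral and extraembryonic mesoderm, reached 20.1 ± 8.7 at 96 h (3.67 ± 0.43, adjusted p = 7.6e-09). *Lhx1*, a LIM homeodomain factor also used in visceral endoderm, had 1 read in the 4 samples of 0 h and stood at 17.2 ± 8.01 at 24 h (log2 fold change 3.67 ± 0.45, adjusted p = 4.1e-08) and 16.8 ± 9.38 at 48 h. Its pooled reads at 24 h were 68.8-fold higher, with a 95% counting interval from 12 to 2756. *Msgn1* had at most 3 reads in each sample. The median of the 8 was 1.44 at 96 h, beside -0.03 over all genes tested.

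Of the neural list 6 passed the filter, and 2 were called higher (*Nes* and *Six3*) and 3 lower (*Olig2*, *Sox1* and *Tubb3*). *Olig2*, a helix-loop-helix factor of oligodendrocyte and motor neuron progenitors, went from 293 ± 37.3 at 0 h to 5.72 ± 4.91 at 24 h (log2 fold change -5.95 ± 0.46, adjusted p = 3.1e-12). *Tubb3*, a neuronal tubulin, fell from 356 ± 81.2 to 11 ± 5.82 at 48 h (-4.98 ± 0.29, adjusted p = 2.3e-15) and stood at 232 ± 26.3 at 96 h (-0.60 ± 0.29, adjusted p = 0.069). *Sox1*, a marker of the early neural plate, went from 38.5 ± 7.84 to 2.77 ± 2.69 at 48 h (-3.74 ± 0.51, adjusted p = 1.6e-07). *Six3*, a homeodomain factor of the anterior forebrain, rose from 3 reads in the 4 samples of 0 h to 22.8, 15.2, 70.8 and 61.6 normalized counts at 8 h (4.52 ± 0.49, adjusted p = 8.9e-09; 57.7-fold in pooled reads, 95% counting interval 19.5 to 282) and stood at 12.9 ± 3.31 at 96 h. *Hes5* and *Neurog2* had at most 3 reads in each of the 32 samples. The median of the 6 was -2.63 at 48 h and -0.92 at 96 h.

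**Figure D4:**
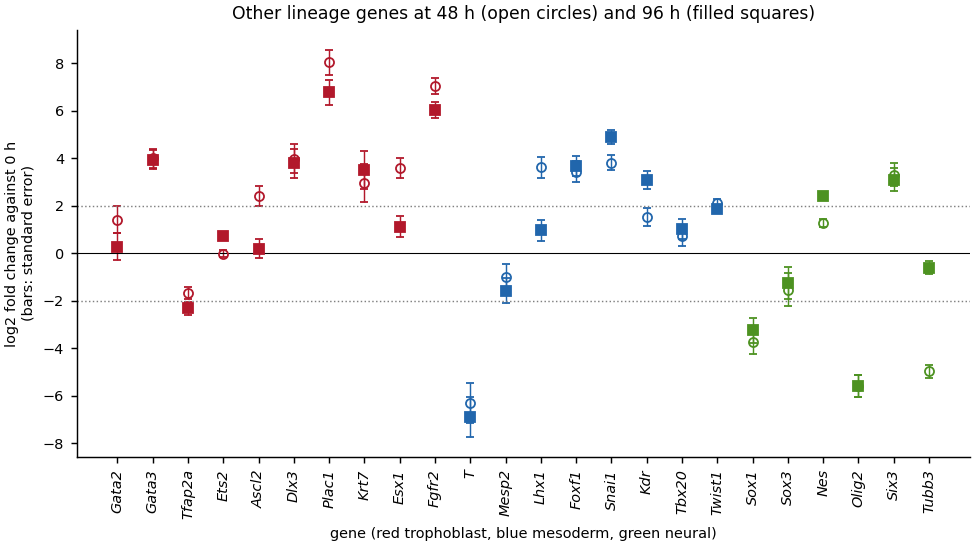
Log2 fold changes against 0 h at 48 h (open circles) and 96 h (filled squares) of the lineage list genes that passed the filter, with bars for the standard error and dotted lines at the 4-fold threshold. *Plac1* (8.05 at 48 h) and *Fgfr2* (7.05 at 48 h) lead the trophoblast genes in red, *T* lies lowest of the mesoderm genes in blue at -6.90, and *Olig2* lies at -5.60 and -5.59 among the neural genes in green.

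Other cell types were looked for by their markers. The summed level of 6 ES cell markers went from 27924 to 29355 normalized counts at 0 h to 3345 to 4009 at 96 h, and that of 6 PrE markers went from 48.2 to 71.7 to between 43214 and 55581. Of 6 fibroblast markers, *Col3a1*, *Dcn* and *Lum* were at 3 reads or fewer at every time point, and the sum reached at most 34. The sum of 4 neuron markers was 291 to 484 at 0 h, 17 to 34.3 at 48 h and 216 to 272 at 96 h, carried by *Tubb3*. Of the others, *Map2* averaged 15.1 at 0 h, 8.56 at 48 h and 4.99 at 96 h, *Neurod1* stood at 3.38 at 96 h, and *Rbfox3* was at 3 reads or fewer there. Their part in the levels of the 10 factors was not tested.

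The genes with the course most like that of each called factor were found by Pearson's r over the 32 samples on the log2 scale, which share time points and replicate sets, so the values are descriptions. For *Hand1* they were *Spty2d1* (r = 0.924), *Cenpe* (0.914) and *Frs2* (0.910). For *Tfap2c* they were *Adgrg1* (0.855), *Mex3b* (0.836) and *Crip1* (0.832), and for *Evx1* they were *Laptm4b* (0.891), *Siah1b* (0.878) and *Rrn3* (0.871). Among the factors themselves, r was -0.693 between *Hand1* and *Evx1*, 0.563 between *Hand1* and *Tead4*, and 0.517 between *Tfap2c* and *Cdx2*.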

How the data were processed

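RNA-seq of 32 samples, 4 replicates at each of 8 time points, was used, with groups taken from the sample titles. The other assays of the study were not analysed here. The 10 factors and the gene lists were chosen with earlier results of these data known. Per the methods, libraries were made with a stranded poly(A) kit. The authors used cutadapt 2.7 for trimming, HISAT2 2.1.0 for alignment to GRCm38.p6 and featureCounts (Subread 1.6.4) for counting on GENCODE annotation, followed by the size factors and variance stabilizing transformation of DESeq2. The deposited values are on this log2 scale, in 54233 rows. Of these, 29140 had no symbol and 29046 of them were named from an identifier table. Coordinates are from GENCODE M21 on GRCm38.

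The lowest deposited value, 1.58, stands for no reads and fixes the transformation. Inverting it gave normalized counts, and whole reads for 100% of values (tolerance 1e-06). Samples of 1 time point differed by more than sampling noise (chi-square per degree of freedom of at least 1.2), so none was merged. The main test was run on a log2 scale, since the deposited unit is log2, with a check by limma-voom on recovered whole reads. The 15227 genes that reached 10 normalized counts in no fewer than 4 samples entered limma 3.58.1 (R 4.3.3, all 32 samples, eBayes with trend) as log2(normalized count + 1), with Benjamini-Hochberg adjustment per comparison. Calls needed FDR < 0.1 and a change of 4-fold or more. Fold changes on this scale understate those of low genes. On simulated data with 13623 genes, 200 of 200 changed genes were called with the right sign and 0 others, with a median error of 0.136. The planted changes all lay well past 4-fold, in genes averaging at least 10 normalized counts. Every gene had the same dispersion, and the replicate sets did not differ. The simulation therefore checks the code and says nothing of calls near the threshold, of lower genes or of differences between sets. The named genes were the 10 factors, up to 4 called genes per list with the largest change, *Pou5f1*, *Nanog*, *Gata4*, *Sox17* and *Gata6*, and the 3 genes most correlated with each called factor. Counting intervals and levels used scipy 1.17.1, pandas 2.3.3 and numpy 2.4.6 in Python 3.11.15, and figures matplotlib 3.10.9. Alternatives covered pseudocount, filter, scaling, replicate block and sets, the samples in the fit, the test, the threshold and leaving out each library. The result for 1 gene of the neural list is not reported here.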

Additional observations from a re-analysis of the deposited data

Results flagged for a closer look

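In 62 sets of 4 replicates of the 10 factors whose values could be compared, 1 set held a sample far from the others by Dixon's test, and chance alone marks about 1 in 20. It was *Mesp1* at 8 h, where replicate 4 had a normalized count of 6.08 and the others 2.68 to 3.14, a gap of 0.864 of the range. The value rests on 8 reads.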

How the results depend on the processing

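Of 721 recomputed fold changes of the factors against 0 h, covering the 35 values past the FDR limit, 686 kept their direction and side of the 4-fold threshold, 10 fell short of it, 24 newly passed it, and 1 reversed. A value counted as kept could still lose the FDR limit. In replicates 3 and 4 alone, this was so for *Eomes* at 48 h (-0.02, limma adjusted p = 0.9) and *Cdx2* at 16 h (-0.18, adjusted p = 0.7). The values that lost the FDR limit were not counted. The reversal was *Cdx2* at 2 h in replicates 1 and 2 alone, at -0.31. The number of factors called higher than 0 h (1) became 2 with no filter on low values (*Elf5* added), 0 among genes with a mean of at least 50 (where *Hand1* was not tested), 2 in replicates 3 and 4 alone (*Cdx2* added), and 3 with a 2-fold or no fold cutoff. The number called lower (2) became 1 with a pseudocount of 5 or a mean of at least 50, and 4 with a 2-fold or no fold cutoff. It became 3 with *Cdx2* added under a pseudocount of 0.5, scaling to total reads, limma-voom or replicates 1 and 2 alone, and 3 with *Mixl1* added under no filter. Calls higher than the preceding time point (2) became 0 with a pseudocount of 5, a mean of at least 50 or the deposited log2 values, and 4 with a 2-fold or no fold cutoff, and calls lower (0) became 4 and 5. Lineage list genes called higher (14) became 7 with a mean of at least 50, and those called lower (7) became 3 there and 11 with a 2-fold or no fold cutoff. Leaving out any 1 library left each of these counts within 1.5 times. The share of all genes called under these other settings was not computed, except by FDR alone at 2 and 96 h. At 96 h it was 38.0% higher and 38.5% lower, so the larger counts do not set the factors or lists apart. The replicate numbers are only shared names: same-numbered samples deviated together no more than those with the other number of their set (mean r 0.196 for both, lowest -0.043), and 15 of 32 samples were closest to their own number. Under a replicate block the counts stayed at 1, 2, 2 and 0 for the factors and at 14 and 7 for the lists. Scaling to total reads moved the median of all genes by up to -0.262 (96 h) and reversed no factor, and it took *Cdx2* at 16 h (-2.01) and *Tfap2c* at 96 h (-2.09) past 4-fold. Depth limits *Elf5*, *Mixl1*, *Mesp1* and *Pax6*, whose libraries held at most 13 reads.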
